A study of Mus musculus with 4 samples.

Results

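The actins, tropomyosins and leiomodin family proteins build the thin filament of the muscle sarcomere, and 10 genes that encode them were followed here in AMPKα2 knockout (KO) and wild-type (WT) mice. They are Acta1, Actc1, Actb, Tpm1, Tpm2, Tpm3, Tpm4, Lmod2, Lmod3 and Tmod4. They were taken by gene symbol, for what they encode and not for how they moved, and every row of the table that carried one of these symbols was kept. All 10 symbols were present, among 9838 genes in all, and they held 88 of 42207 start sites.

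The measurement was whole transcriptome start site sequencing (WTSS-seq) of total RNA from skeletal muscle of adult mice, the gastrocnemius according to the study's methods. In this method ribosomal RNA is depleted, cDNA is made with a semirandom primer and with template switching at the 5′ end, and each read gives the 5′ end of a cDNA, from a whole transcript or from a piece of it. The KO group was 2 libraries from mice that lacked AMPKα2 in the whole body from the germ line, through deletion of a coding segment of the catalytic domain in Prkaa2, and the WT group was 2 libraries from animals without this deletion. Prkaa2 codes for AMPKα2, a catalytic chain of AMPK, the kinase that responds to low cellular energy.

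Actin monomers polymerise into the thin filament, and tropomyosin dimers lie along it and, together with troponin, set when myosin can bind. Leiomodins add actin at the pointed end of the filament and tropomodulins cap that end, so that between them they set its length. In adult skeletal muscle Acta1 is the sarcomeric actin, Tpm1 and Tpm2 encode the main tropomyosins of fast fibres and Tpm3 the slow fibre form, whereas Actb and Tpm4 are mostly cytoskeletal and are shared with fibroblasts, vessels and blood cells.

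Sequencing depth was 1300069 to 2900279 reads per library, greater in KO than in WT. The detection floor was set at 3 reads, or 1.03 to 2.31 ppm of a library, and it covers counting error only. Pooled over sites, replicate libraries differed by more than sampling noise. The chi-square per degree of freedom was 10.5 in KO and 6.46 in WT, and single sites were not compared with this noise. Each library was therefore counted as 1 sample. Skeletal muscle fibre markers were present for 8 of 8 genes in the list. Prkaa2 itself stood at 149 and 183 normalised reads in KO and at 153 and 186 in WT (log2 fold change −0.03, SE 0.50, adjusted p = 0.994 by DESeq2). Sites outside the deleted segment can be read in both genotypes, and where its sites lie relative to that segment was not analysed here, so these values were no check of the labels.

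The 10 genes took a like share of every library. They held 0.340% and 0.410% of the reads of the KO libraries and 0.394% and 0.358% of those of the WT libraries. The KO shares enclosed the WT shares. In the rest of the text, 4 values in a row are KO replicate 1, KO replicate 2, WT replicate 1 and WT replicate 2. Normalised reads are counts divided by the DESeq2 size factor of the library. They are not scaled to transcript length, so no order of levels between genes was drawn from them.

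Most of the reads in these genes did not begin at the annotated start of the gene. The RefSeq promoter table gave a start for 8 of the 10 genes, and Actb and Lmod3 had no entry. Within 100 bases of such a start lay 5 of 68 sites on the strand of the gene, or 7.35%, with 8.08% of the reads. Over all genes with an entry these were 3.17% of sites and 8.84% of reads. A site near a start was present in 4 of the 8 genes, against 13.4% of all genes with an entry, and Tpm3 and Tpm1 held 877 and 734 of the 1682 reads there. Presence was not matched for the number of sites, which was 68 in the 8 genes and 28712 in the 6449 genes with an entry. These shares and those that follow are descriptions with no test. Class code e, given to sites that run from an exon into an intron, held 56.3% of the reads of the 10 genes and 7.56% of the reads of all genes, and code x or another antisense position held 15.8% against 2.89%. Their sites were also wider, with a median of 41.5 against 13 bp, and the 8 sites with 1000 reads or more held 73.2% of the reads.

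Tpm3 was the member whose leading site sat at the annotated start. The site covered chr3:90072636-90072655 (GRCm38, plus strand, code o), and its most used base was 8 bases upstream of the RefSeq start at 90072651. Acta1, in contrast, had 56 of 6039 reads of its strand at its start, in a narrow site at chr8:123894752-123894762 on the minus strand. Both stretches are shown because they are the starts that the reads can be set against, with the bases of the start site in capitals (RefSeq promoter sequences, GRCm38.p6).
Tpm3, chr3:90072628-90072657, plus strand: ttcaaaccTGGGGAACTTTGAGTGACCCgg
Acta1, chr8:123894750-123894774, minus strand: cctgtgcaagggGACAGGCGGTCac
Upstream of the Acta1 site the letters TATAAA stand at bases 7 to 2 before the RefSeq start, and the site lies 20 to 30 bases downstream of their first base. The window is shown with these letters in capitals.
Acta1, chr8:123894766-123894793, minus strand: tcccgggactaTATAAAaacctgtgcaa
Searched on both strands, TATAAA was present in 13.6% of 32817 promoters, and among the 9 promoter entries of the members in those of Acta1 and Actc1. In Actc1 the first match on the strand of the gene lies downstream of the RefSeq start, at bases 34 to 39 counted from it. The CArG box, the motif that serum response factor binds, was held by 1.63% of promoters and again by those of Acta1 and Actc1, which encode the skeletal and the cardiac sarcomeric actin. The 2 boxes are shown in capitals.
Acta1, chr8:123894830-123894857, minus strand: gcccgacacCCAAATATGGcttgggaag
Actc1, chr2:114052904-114052931, minus strand: ctaaggcgaCCAAATAAGGcaaggtggc
The letters CAGCTG, an E-box, were found in the entries of Acta1, Lmod2, Tpm2, Tpm3 and Tpm4 and in 16.3% of all promoters, CATTCC in those of Acta1 and Tpm1 (14.7% of all), and CCAAT in those of Actc1 and Tpm1 (37.4% of all). A MEF2 site was found in none of the 9 and in 3.19% of all. These matches are descriptions of the letters and no evidence of binding.

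**Figure D1:**
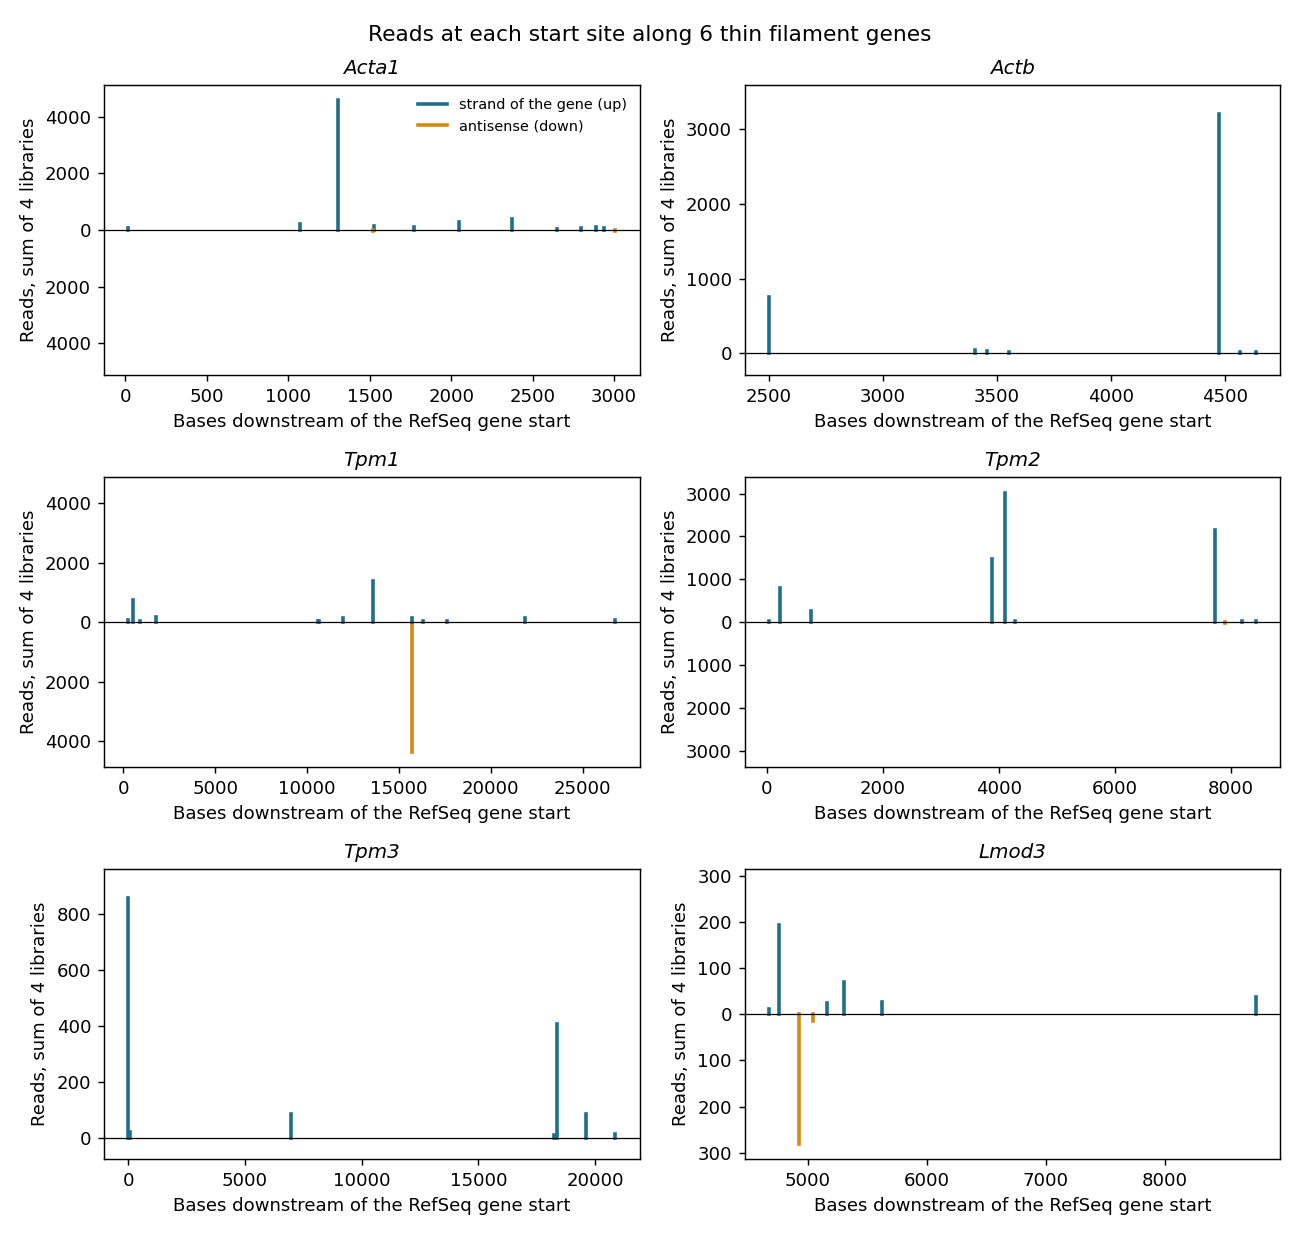
Reads at each start site along 6 of the genes, summed over the 4 libraries, against the distance in bases from the 5′ bound of the RefSeq gene, with sites on the strand of the gene drawn upward and antisense sites downward. Acta1 has its tallest site 1307 bases into the gene and Tpm3 has it at the gene start, and in Tpm1 and Lmod3 the tallest site is antisense.

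No gene of the set was called in its sum over sites. There 9 of 10 were tested (Tpm4 fell below the mean count that DESeq2 required), and 0 of 9 were called higher or lower at an adjusted p under 0.1, by DESeq2 or by edgeR. At an unadjusted p under 0.05 the counts were 1 with DESeq2 and 0 with edgeR, against 9.77% and 10.5% of all genes tested. Over all genes tested, DESeq2 called 2.67% and edgeR 0.883%, so a count of 0 among 9 lay near the background. The median log2 fold change of the 9 was −0.02, against 0.01 for all genes tested. Both KO libraries lay above both WT libraries for 1 of the 9 (Lmod2) and below for 1 (Acta1), where the background was 22.0% and 19.4% of genes. The tissue is a mixture of cells, and in these bulk samples fewer cells of a type and less RNA per cell cannot be told apart.

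**Figure D2:**
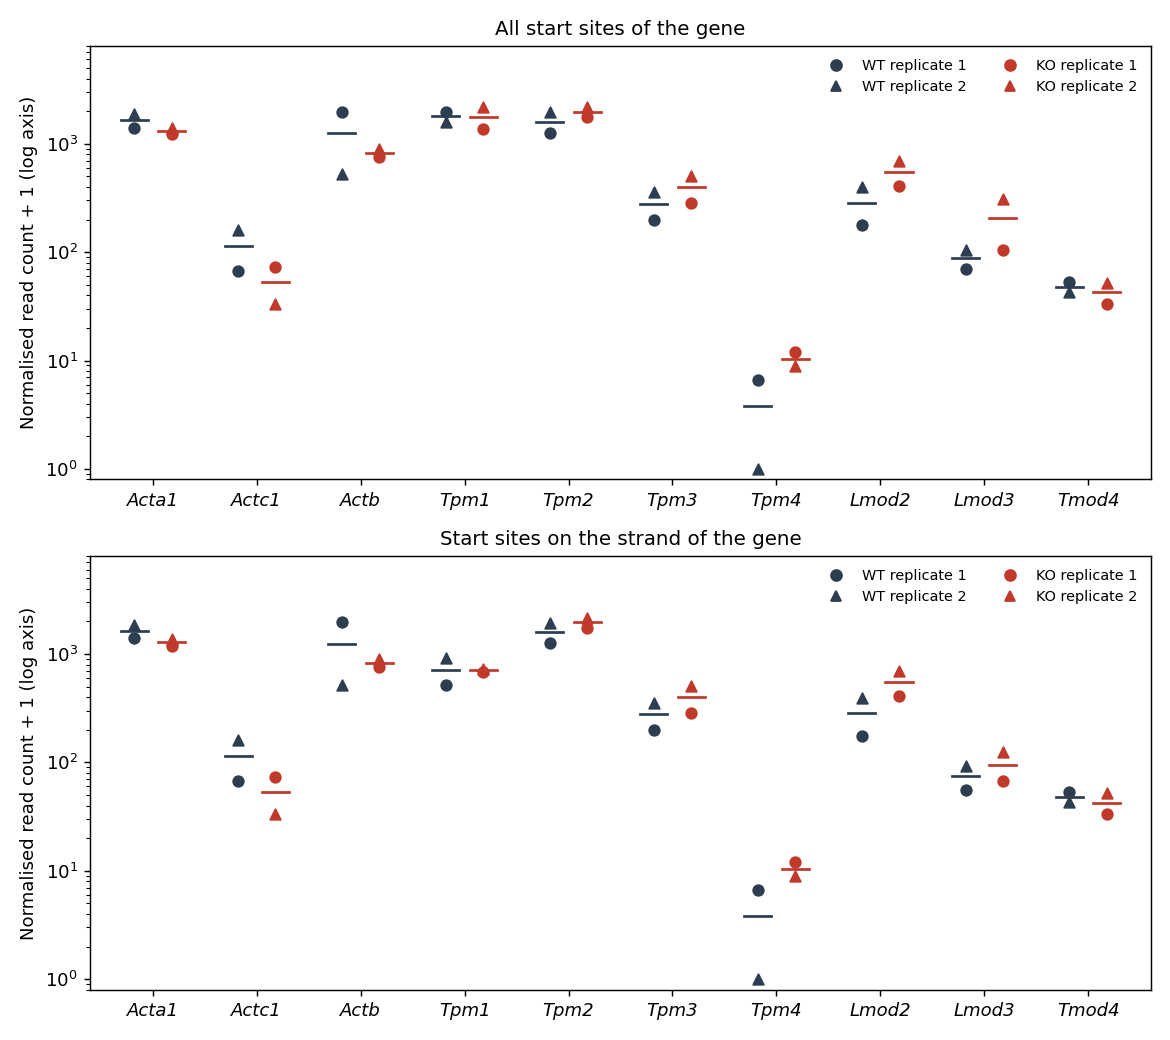
Normalised read counts plus 1, on a log axis, of the 10 genes in each library, for all start sites (top) and for those on the strand of the gene alone (bottom). Points are libraries, with circles for replicate 1 and triangles for replicate 2, and bars are the mean of each group. The groups overlap for most genes, Tpm1 drops on its own strand in every library, and the KO value of Lmod3 replicate 2 comes down from 308 to 123.

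**Figure D3:**
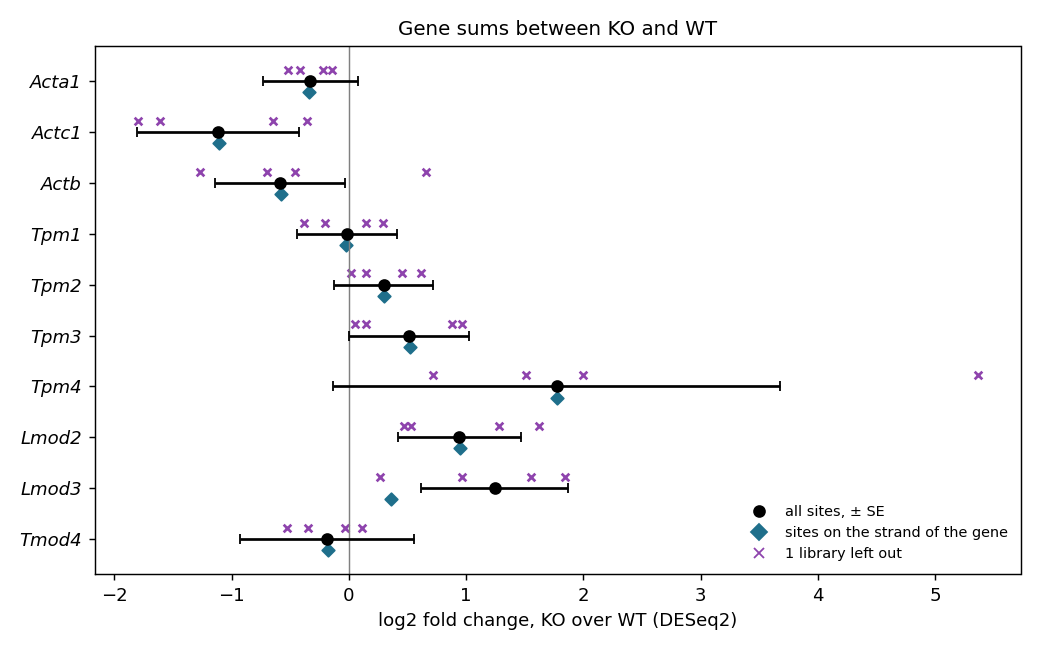
DESeq2 log2 fold change of KO over WT for each gene sum, with its SE (black, n = 2 per group), from the sites on the strand of the gene alone (blue diamonds), and with each library left out in turn (purple crosses). Most error bars reach or come near 0, and for Actb, Tpm1 and Tmod4 the crosses lie on both sides of it.

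Acta1, skeletal muscle alpha-actin (chromosome 8, 123891758 to 123894775, minus strand), had 14 sites. Its normalised counts were 1219, 1396, 1408 and 1874. Both KO libraries were therefore below both WT libraries, but the second KO library differed little from the first WT library. The log2 fold change was −0.33 (SE 0.41, 95% interval −1.12 to 0.47), with an adjusted p of 0.94 by DESeq2. The leading site, at chr8:123893350-123893529 with code e, took 4575 of the reads. On the strand of the gene its share was 76.6%, 67.7%, 80.0% and 80.3%, a mean of 72.2% ± 6.27 (SD, n = 2) against 80.2% ± 0.184. The second site of the gene, at 123892275-123892443, read 66.9, 93.2, 93.6 and 114 normalised reads, and the third, at 123892669-123892767, read 49.2, 85.4, 85.5 and 67.0. The second followed the order of the gene sum and the third did not.

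Actc1, cardiac alpha-actin (chromosome 2, minus strand), is the actin of the heart and of developing muscle and had few reads. Its counts were 118, 37, 47 and 129 reads, or 72.1, 32.3, 65.9 and 161 after normalisation. The groups overlapped (log2 fold change −1.11, SE 0.69, adjusted p = 0.69 by DESeq2). Its leading site at chr2:114050551-114050621, with code o, read 22.3 and 17.3 normalised reads in KO and 32.6 and 80.9 in WT, without overlap and with an adjusted p of 0.73 by DESeq2. The other 2 named sites, at 114047486-114047560 and 114050454-114050505, overlapped between the groups. Of the reads of the pair of sarcomeric actins, Acta1 took 94.3%, 97.7%, 95.5% and 92.1%.

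Actb, the cytoskeletal beta-actin (chromosome 5, minus strand), varied more between the WT libraries than between the groups. The normalised counts were 760, 898, 1965 and 523. The WT libraries were the highest and the lowest of the 4, and both KO libraries lay between them. The log2 fold change of −0.58 (SE 0.56, adjusted p = 0.90 by DESeq2) became 0.66 without WT replicate 1. Most of this spread came from 1 site, chr5:142903456-142903651 with code c, 4477 bases into the gene. It had 1042, 758, 1233 and 177 reads. These were 83.8%, 73.7%, 88.0% and 42.1% of the reads of the gene. The 95% exact binomial intervals were 86.2 to 89.7% in WT replicate 1 and 37.4 to 47.0% in WT replicate 2, which cover counting error only and not the spread between libraries. The second site, at chr5:142905324-142905497 with code e, read 102, 198, 200 and 251 normalised reads, so that it was not high in WT replicate 1. The third, at 142904566-142904606, read 15.8, 14.7, 6.79 and 6.93.

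Markers of the other cell types that carry Actb did not all run with it. Those of macrophages and leukocytes, 4 of 5 of which were in the table (no row for Cd68), summed to 87.3, 111, 300 and 174 normalised reads. The sum was highest in the library with the most Actb, as were Ptprc and Adgre1, whereas Csf1r was lowest there and Lyz2 was highest in WT replicate 2. The fibroblast markers, 6 of 6 in the table, summed to 2592, 2131, 3169 and 3091. This sum was higher in both WT libraries, and nearly level between them, whereas Col1a1, Col1a2 and Lum overlapped between the groups. Endothelial markers, 5 of 5 in the table, summed to 282, 267, 219 and 218. This sum was higher in KO and was mostly Flt1 (236, 175, 146 and 146 normalised reads). Pecam1 was lower in both KO libraries (15.88, 6.99, 29.45 and 33.63), and Cdh5, Kdr and Vwf overlapped between the groups. Smooth muscle markers, 3 of 5 in the table (no row for Cnn1 or Actg2), summed to 39.1, 128, 65.9 and 63.5. The part of these cells in the Actb values was not tested.

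The tropomyosin genes kept a near constant division of their reads. Of the reads on the strand of these 4 genes, Tpm2 held 60.3% to 64.2%, Tpm1 21.2% to 28.6%, Tpm3 10% to 14.9% and Tpm4 at most 0.402% in the 4 libraries. The largest share of Tpm3 was in KO replicate 2 and that of Tpm1 in WT replicate 2.

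Tpm2, beta-tropomyosin (chromosome 4, 43513726 to 43523583, minus strand), had normalised counts of 1757, 2177, 1252 and 1945. The groups overlapped (log2 fold change 0.30, SE 0.42, 95% interval −0.53 to 1.13, adjusted p = 0.95 by DESeq2). Of its 11 sites 3 took most of the reads, all with code e. The first, chr4:43519419-43519523, read 832, 708, 466 and 684 normalised reads. The second, 43515713-43516042, read 486, 665, 366 and 422. Both lay above WT in both KO libraries, but neither was called (adjusted p = 1.00 for each by DESeq2). The third, 43519622-43519771, read 327, 373, 224 and 440 and overlapped.

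Tpm1, alpha-tropomyosin (chromosome 9, 67022590 to 67049672, minus strand), had 23 sites, more than all but 144 genes, where the median gene had 2. Its gene sum of 1363, 2174, 1984 and 1594 normalised reads hid a mixture of strands, since 4360 of its 7415 reads (58.8%) lay on the opposite strand. Among 611 genes with 1000 reads or more outside the mitochondrial and 18S rows, 15 (2.46%) had 50% or more of their reads antisense. Nearly all of it was 1 narrow site of 4 bases with code x, chr9:67033962-67033965 on the plus strand, with 1109, 1653, 1043 and 542 reads. That is 49.7%, 66.4%, 73.7% and 42.3% of the reads of the gene. The highest and the lowest share were both in WT. The difference in the site between KO and WT was small beside its spread (728, 1427, 1415 and 626 normalised reads, log2 fold change 0.08, SE 0.64, adjusted p = 1.00 by DESeq2), and it turned to −0.50 without KO replicate 2 and −0.44 without WT replicate 2. A sense site at 67033932-67034008, with 128 reads, covers the same bases. With no molecular identifiers, reads copied by PCR from 1 molecule cannot be told apart from reads of separate molecules here.

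On its own strand Tpm1 read 684, 725, 522 and 913 normalised reads, and the KO libraries lay between the WT libraries. The leading site on this strand, chr9:67036029-67036166 with code e, read 301, 314, 255 and 426. It held 42.5% ± 2.14 (SD, n = 2) of the sense reads in KO and 50.3% ± 0.284 in WT, with no overlap. The test of reads over sites within the gene, run with both strands, did not call this site (log2 fold change −0.15, unadjusted p = 0.775 by diffSpliceDGE of edgeR). The next site, chr9:67049037-67049261 with code c, spans the RefSeq start and read 179, 150, 137 and 216. It took 24.3%, 21.0%, 27.1% and 25.4% of the sense reads, so that Tpm1 was the other member with a sizeable share at its start.

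An intronic site of Tpm1 stood apart, and it was chosen after its values were seen. At chr9:67037687-67037719 (code i) 68 and 57 reads were counted in KO and 5 and 5 in WT, or 44.6, 49.2, 6.79 and 5.78 after normalisation. The groups were well separated, with a log2 fold change of 2.90 (SE 1.08). It did not pass the test in either tool (adjusted p = 0.16 by DESeq2 and 0.20 by edgeR).

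Tpm3, the slow fibre tropomyosin gene (chromosome 3, 90072651 to 90100902, plus strand), also makes short cytoskeletal forms from an internal start. Its normalised counts were 285, 509, 198 and 357, which overlapped (log2 fold change 0.51, SE 0.51, adjusted p = 0.91 by DESeq2). The start site shown above read 159, 294, 85.5 and 245 normalised reads. It was lowest in WT replicate 1 and overlapped between the groups (log2 fold change 0.45, SE 0.72, and −0.08 without KO replicate 2 or −0.11 without WT replicate 1). The second site, chr3:90090998-90091055 with code c, lies 18348 bases into the gene. It read 100, 167, 33.9 and 41.6 normalised reads, with both KO libraries above both WT libraries. Its log2 fold change was 1.82 (SE 0.74), a mean of 134 ± 47.4 against 37.8 ± 5.42 (SD, n = 2), but it was not called (adjusted p = 0.25 by DESeq2 and 0.34 by edgeR). It held 32.8% and 33.3% of the Tpm3 reads in KO and 17.7% and 12.5% in WT. The third site, 90092278-90092280, read 17.1, 19.9, 40.7 and 5.78.

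RefSeq lists another start for Tpm3 inside the gene. The nearest site downstream of it, at chr3:90079635-90079685 and 119 bases away, had 84 reads in all. It read 12.5, 13.8, 27.1 and 33.5 normalised reads, with both KO libraries below both WT libraries. That is the opposite direction to the second site of the gene. It was not called (log2 fold change −1.21, SE 1.08, adjusted p = 0.99 by DESeq2 and 0.66 by edgeR). Its share of the Tpm3 reads was 4.07%, 2.75%, 14.2% and 10.1%. Reads of Tpm3 could also have been counted at a related gene, since Tpm3-rs7 on chromosome 14 had 77, 73, 84 and 54 reads. How multiply mapped reads were placed is not given in the sources used here, so the Tpm3 values are uncertain to that extent.

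Tpm4, a cytoskeletal tropomyosin (chromosome 8, plus strand), had 18, 9, 4 and 0 reads. A count of 0 in WT replicate 2 allows up to 1.91 ppm. These counts were too low for a comparison. The reads were spread over 3 sites, at 72143482-72143486, 72143385-72143386 and 72151441, with 10 or 11 reads each.

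Slow fibre markers were lowest in the same library as Tpm3. With 6 of 7 in the table (no row for Myl2), they summed to 860, 1146, 337 and 884 normalised reads, and Tnni1 had 0 reads in WT replicate 1. The sum of the skeletal muscle fibre markers was also lowest in WT replicate 1, at 63747, 74232, 58127 and 80906 normalised reads. In proportion, the slow fibre sum lay further below the other libraries there than this sum did. Among the skeletal muscle fibre markers, Ckm and Mylpf were lowest in KO replicate 1 and the others in WT replicate 1. The part of either list in the values of Tpm3 was not tested.

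Lmod2, a leiomodin of striated muscle (chromosome 6, 24597771 to 24605414, plus strand), was the only one of the 9 tested genes with both KO libraries above both WT libraries. Its normalised counts were 411, 690, 175 and 397, but KO replicate 1 and WT replicate 2 were nearly level. The log2 fold change was 0.94 (SE 0.52, 95% interval −0.08 to 1.97) with an adjusted p of 0.60 by DESeq2 and by edgeR. It ran from 0.47 without WT replicate 1 to 1.62 without WT replicate 2. One wide site, chr6:24603282-24603698 with code e and 5717 bases into the gene, held 93.1% to 97.6% of its reads. This site read 423, 636, 166 and 343 normalised reads (log2 fold change 1.06, SE 0.63, adjusted p = 0.70 by DESeq2). Sites 24603884-24604003 and 24597856-24597904 followed with 46 and 20 reads. Of the sense reads of both leiomodin genes, not scaled to length, Lmod2 held 86.2%, 85.0%, 76.2% and 81.2%.

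Lmod3, a leiomodin of skeletal muscle (chromosome 6, 97238530 to 97253217, minus strand), held the only called site of the 88. In the site fit 42 of 88 were tested with DESeq2 and 41 with edgeR. DESeq2 called 1 higher in KO and 0 lower, where 3.21% of all sites tested were called, and edgeR called 0, where 0.712% were called. At an unadjusted p under 0.05 the numbers were 4 of 42 and 3 of 41, against 9.63% and 10.3% of all sites tested. Both KO libraries lay above both WT libraries at 12 of the 42 sites and below at 6, against 23.0% and 17.4% of all sites.

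The called site was antisense to an exon of Lmod3 (code x), 5 bases wide at chr6:97248294-97248298 on the plus strand. It had 59, 205, 6 and 10 reads, or 38.7, 177, 8.14 and 11.6 normalised reads. Both KO libraries were higher than both WT libraries, and KO replicate 2 was more than 4 times KO replicate 1. On the log2 scale the difference was 3.45 (SE 0.97, 95% interval 1.54 to 5.35), with an adjusted p of 0.025 by DESeq2 and 0.17 by edgeR. The call was lost without KO replicate 2, where the log2 fold change was 1.95, and without WT replicate 1 (3.23) or WT replicate 2 (3.69). Over the 2 antisense sites of the gene 294 of 655 reads (44.9%) lay on the opposite strand. As for Tpm1, copies by PCR cannot be told apart.

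**Figure D4:**
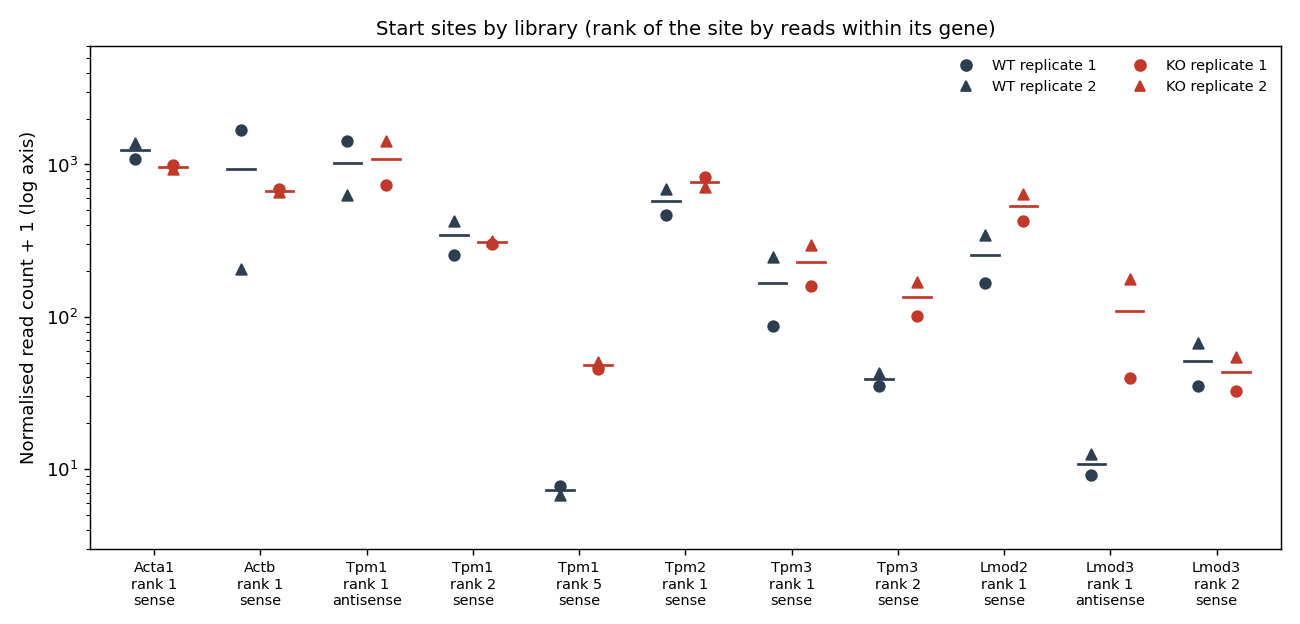
Normalised read counts plus 1, on a log axis, of 11 start sites in each library, with circles for replicate 1, triangles for replicate 2 and bars for the mean of each group. KO and WT are well separated at the intronic site of Tpm1, the second site of Tpm3 and the antisense site of Lmod3. They lie closer, without overlap, at the leading sites of Acta1, Tpm2 and Lmod2. The WT replicates are far apart at the leading site of Actb, and there and at the other sites the groups overlap.

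The sum of Lmod3 turned on this site. With both strands it was 104, 308, 68.7 and 105 normalised reads (log2 fold change 1.24, SE 0.62, adjusted p = 0.50 by DESeq2), and the fold change was 0.27 without KO replicate 2. On its own strand it was 65.9, 123, 54.7 and 91.8 (log2 fold change 0.36, adjusted p = 0.97 by DESeq2). The KO and WT libraries overlapped in both. Its leading sense site, chr6:97248383-97248468 with code c, lies next to the antisense site and read 31.5, 53.5, 33.9 and 65.8, and the next, 97247836-97247963, read 11.8, 24.2, 12.2 and 17.3. Both overlapped between the groups.

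Tmod4, the skeletal muscle tropomodulin (chromosome 3, 95122799 to 95129209, plus strand), had few reads. Its normalised counts of 32.4, 50.7, 51.9 and 42.3 overlapped (log2 fold change −0.19, SE 0.74, adjusted p = 0.99 by DESeq2), and the fold change turned to 0.11 without KO replicate 1. Its leading site, chr3:95128574-95128689 with code e, had 155 of its 182 reads, and the other 2 sites (95125834-95125850 and 95128806-95128838) had 15 and 12.

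The division of reads over start sites within a gene, the measure that bears on alternative promoter use, was not called for any of these genes that could be tested. With diffSpliceDGE of edgeR, 0 of 8 genes were called at an adjusted Simes p under 0.1, where 1.77% of 2145 genes were called. Lmod3 had the smallest adjusted p (0.58 by edgeR), followed by Tpm1 (0.63). Tmod4 and Tpm4 had fewer than 2 sites that passed the filter on low counts.

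No other gene listed for the thin filament was called in its sum over sites either. Single start sites of these genes were not looked at here. Of 35 listed for their known role in the filament or its assembly, 32 were in the table and 25 were tested, and 0 were called higher or lower with DESeq2, or of 27 with edgeR. At an unadjusted p under 0.05, DESeq2 had 1 of the 25, against 9.77% of all genes tested. Their median log2 fold change was −0.06, against 0.01 over all genes, and 11 of the 25 were positive, against 50.5% of all genes tested. Tmod1, a tropomodulin that caps thin filaments, had the smallest p among those higher in KO, with 147, 148, 31 and 28 reads (log2 fold change 1.48, SE 0.64, adjusted p = 0.32 by DESeq2 and 0.34 by edgeR). Tnnt1, slow troponin T, had 65.4, 94.4, 7.01 and 46.1 normalised reads (log2 fold change 1.58, SE 0.84, adjusted p = 0.56 by DESeq2). Fhod3, a formin of the sarcomere, had 316, 506, 268 and 214 normalised reads (log2 fold change 0.77, SE 0.47, adjusted p = 0.69 by DESeq2). On the lower side Tnni2, fast troponin I, had a log2 fold change of −0.68 (adjusted p = 0.87 by DESeq2) and Cfl2, muscle cofilin, −0.46 (adjusted p = 0.92 by DESeq2).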

How the data were processed

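The authors deposited 1 table of raw read counts per start site and library. Per the labels it was made against GRCm38.p5. The study describes its mapping, clustering and Cuffcompare class codes for the sister 3′ end libraries, and whether the same settings were used for the 5′ ends is not given in the sources used here. The table was taken as deposited, with its line of totals left out, and counts were summed per gene symbol over all sites. Sites had at least 10 reads in total, which admits sites of deeper libraries more readily. No molecular identifiers were described.

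Sites and genes were fitted over the whole table with the Wald test of DESeq2 1.42.0 (R 4.3.3), the tool of the study's methods, at a Benjamini-Hochberg adjusted p under 0.1. The quasi-likelihood test and diffSpliceDGE of edgeR 4.0.16 were run beside it after its filter on low counts. Scripts were tested on simulated data. Groups and replicate numbers came from the sample titles, and all 4 libraries entered each fit without covariates. With 2 against 2 libraries an exact permutation test cannot go below p = 0.333, so none was used. Whether the libraries stand for separate animals rests on the study's text.

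The 10 genes and the lists were chosen with earlier results of these data known. The text names all 10 genes, the 3 sites with most reads in each and every called site. Sites outside this rule are also given. They lie at the start of Acta1, in Tpm1 (the intronic site and the sense site that covers the antisense site) and near the internal start of Tpm3. Of the thin filament list it names at most 3 genes in each direction with the smallest p. RefSeq positions and promoters (250 bases before to 50 from the start) are those of GRCm38.p6, whose primary chromosomes share coordinates with the files' build. Transcript lengths and exon positions were not used here. Alternatives were another tool, TMM scaling, filters, left-out rows and libraries, a replicate block and, chosen after seeing the data, sites on the gene strand alone.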

Additional observations from a re-analysis of the deposited data

How the results depend on the processing

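Of the alternative values computed, 365 were classed as the same, 15 were fold changes that changed sign, 5 were fold changes that lost the call and 5 were counts that moved. The first class mixes 3 measures. It holds fold changes that kept their sign and their side of the threshold and counts that did not change. It also holds leading-site shares that stayed within their SD over the libraries. The count of sites called higher in KO, 1 in the main fit, was 0 with edgeR and with edgeR and the replicate block, and 0 to 1 with 1 library left out. The called antisense site of Lmod3 had log2 fold changes of 3.36 with edgeR and 3.07 with edgeR and the replicate block, and 1.95 to 4.20 with 1 library left out. With the replicate block the leading site of Actb turned to 0.19 with DESeq2 and 0.12 with edgeR. With 1 library left out that site ran from −1.37 to 1.71, and the leading sites of Tmod4 from −0.71 to 0.33, of Tpm1 from −0.50 to 0.79 and of Tpm3 from −0.11 to 1.36. For gene sums the same ranges were −1.27 to 0.66 for Actb, −0.38 to 0.29 for Tpm1 and −0.53 to 0.11 for Tmod4. With the class codes c, o, e and = alone, Tpm1 turned to 0.08 and Tmod4 to 0.05. None of these sums was called in any setting run. The cause was not tested. Same-numbered libraries did not deviate together (correlation of deviations 0.0721 over 11242 sites, 2 pairs), so the numbers were not taken as pairs, and the block changed no call within DESeq2 or within edgeR, the count being 1 and 0 with and without it. With 2 libraries per group and gene counts as low as 0 to 18 reads in Tpm4, depth limits Tpm4, Tmod4 and Actc1 most.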
